A study of Rattus norvegicus with 9 samples.

Results

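The 10 genes described here stand for the protein folding and endoplasmic reticulum (ER) stress machinery here, chosen by name and Ensembl identifier. The rule uses no measured value, though earlier results of these data were known when the genes were picked. They are the small heat shock proteins Hspb1 and Cryab, the ATP-driven chaperones Hspa8, Hsp90ab1 and Hspd1, the ER chaperones Hspa5 and Calr, and the stress transcription factors Xbp1, Atf4 and Ddit3. They are 10 of the 32883 genes in the table, which gives identifiers only, so each name is the one paired with its identifier when the genes were chosen. RNA sequencing was done on rat brain in 9 libraries, 3 of each group: rats with a sham operation (sham), rats with occlusion of the middle cerebral artery (MCAO, which models ischaemic stroke) and rats with the same occlusion that were given Panax notoginseng (PN), a herb used in Chinese medicine. The series concerns ischaemia followed by reperfusion. The labels give no strain, age, brain region, hemisphere, time after surgery or dose. They also do not state that each library is a different animal, and p-values therefore reflect the spread among these libraries alone, part of which may be technical. Libraries are called by their group and the code that ends the sample title, such as MCAO 3B.

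Chaperones bind unfolded or damaged proteins and help them fold, or hold them until they are refolded or degraded. When damaged protein builds up in the cytosol, heat shock factor 1 switches on heat shock genes through heat shock elements in their promoters. When it builds up in the ER, the sensors IRE1, ATF6 and PERK start the unfolded protein response: IRE1 splices the messenger RNA of Xbp1, ATF6 is cut to release a transcription factor, and PERK slows translation while favouring that of Atf4, which in turn switches on Ddit3 (also called CHOP), a promoter of cell death. Loss of blood flow and its return are known to engage these pathways in brain. Gene-level RNA values show neither the splicing of Xbp1 nor the translation of Atf4.

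All values are FPKM, fragment numbers scaled to transcript length and to the number of mapped fragments, so levels can be set side by side between genes. The 10 genes were all well above the filter of 1 FPKM in at least 3 libraries, which left 15051 genes for testing. Hsp90ab1 had the highest level, 656 FPKM as the mean of the 9 libraries and 35th among the genes tested, followed by Hspa8 (564 FPKM), Calr (271 FPKM), Hspa5 (144 FPKM), Atf4 (93.3 FPKM), Hspd1 (79.9 FPKM), Xbp1 (65.6 FPKM), Cryab (36.6 FPKM), Ddit3 (20.2 FPKM) and Hspb1 (13.1 FPKM). The order of most neighbours held in nearly every library: Hsp90ab1 was above Hspa8 in 8 of 9, and Hspa8 above Calr, Calr above Hspa5, Xbp1 above Cryab and Cryab above Ddit3 in 9 of 9. Atf4 and Hspd1 could not be put in order, since Atf4 was higher in 4 of 9 libraries, and Hspa5 was above Atf4 in 7 of 9. Together the 10 genes took 0.406% to 0.550% of the FPKM sum of a library. Hsp90ab1, Hspa8 and Hspd1 have near-identical processed copies in mammalian genomes, and how reads shared between copies were assigned is not given in the sources used here.

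**Figure D1:**
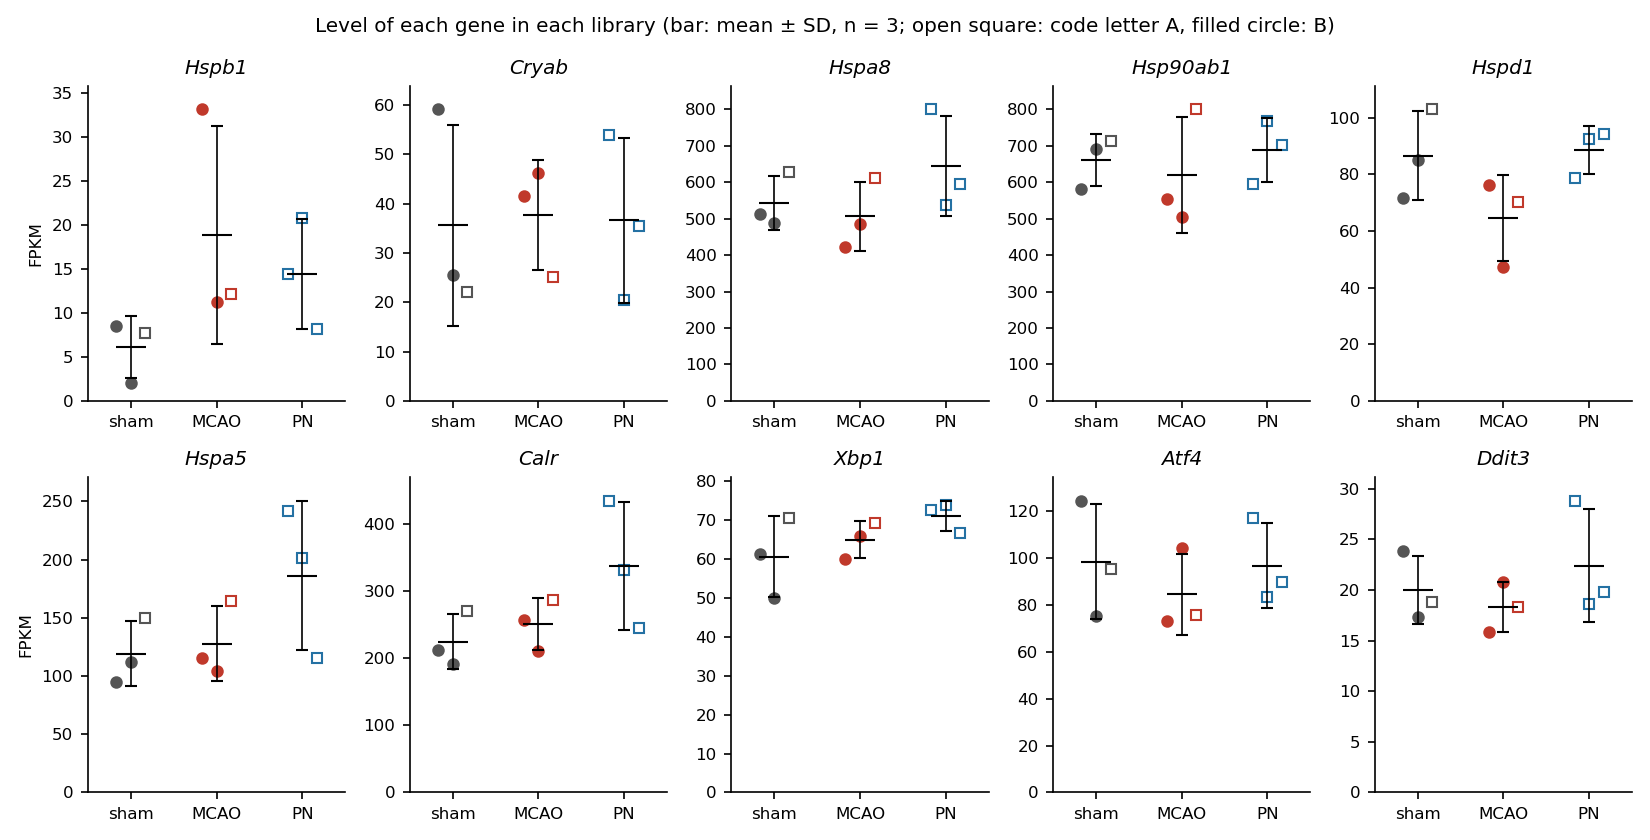
Level (FPKM, y axis from 0) of each of the 10 genes in the sham, MCAO and PN libraries; points are single libraries, bars are the mean ± SD of 3, open squares mark code letter A and filled circles code letter B. Hspb1 is the gene whose 3 MCAO libraries (11.3 to 33.2 FPKM) all lie above its 3 sham libraries (2.09 to 8.50 FPKM), and Hspd1 the gene whose 3 PN libraries all lie above its 3 MCAO libraries.

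MCAO against sham asks what the occlusion changed. None of the 10 genes passed an adjusted p of 0.05 over all genes tested (limma), where 0.00664% of all genes did, and 1 of the 10, Hspb1, was higher in MCAO at an unadjusted p under 0.05, where 4.87% of all genes were higher at that threshold and 11.1% passed it in either direction. Means were higher in MCAO for 5 genes and lower for 5, where 48.2% of all genes were higher, and the median log2 difference of the 10 was -0.00467 against -0.01 over all genes tested. The groups did not overlap for 1 gene, Hspb1, which lay higher in MCAO, as 8.59% of all genes did. A 2-fold change, up or down, lay outside the 95% interval for 8 of the 10 genes and for 61.8% of all genes. In bulk tissue, fewer cells of a type and less RNA per cell cannot be told apart.

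PN against MCAO asks what Panax notoginseng changed after the occlusion. None of the 10 passed (limma, against 0.00664% of all genes), and 0 of 10 reached an unadjusted p under 0.05, where 13.2% of all genes did. Means were higher in PN for 8 of the 10, all but Hspb1 and Cryab, where 57.1% of all genes were higher. The median log2 difference was 0.23 for the 10 genes and 0.07 over all genes. Hspd1 was the 1 gene of which the lowest PN library exceeded the highest MCAO library, an arrangement that 13.6% of all genes had. A 2-fold change lay outside the interval for 7 of the 10 and for 60.7% of all genes.

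PN against sham asks what still differed after treatment. None of the 10 passed (limma, against 0.0199% of all genes), and 1, Calr, was higher in PN at an unadjusted p under 0.05, against 3.4% of all genes, or 4.25% counting both directions. Means were higher in PN for 9 of the 10, where 55.5% of all genes were higher, with a median log2 difference of 0.19 against 0.04 over all genes. No gene of the 10 had groups that did not overlap, an arrangement found in 8.71% of all genes. A 2-fold change lay outside the interval for 6 of the 10 and for 68.9% of all genes. The 3 comparisons share libraries, so their values are not independent of each other. In a test for any difference between the 3 groups, 0 of 10 passed (limma moderated F, smallest adjusted p = 0.484, for Hspb1), where 0.0199% of all genes did. Hspb1 had an unadjusted p under 0.05 in that test, as 10.3% of all genes had.

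**Figure D2:**
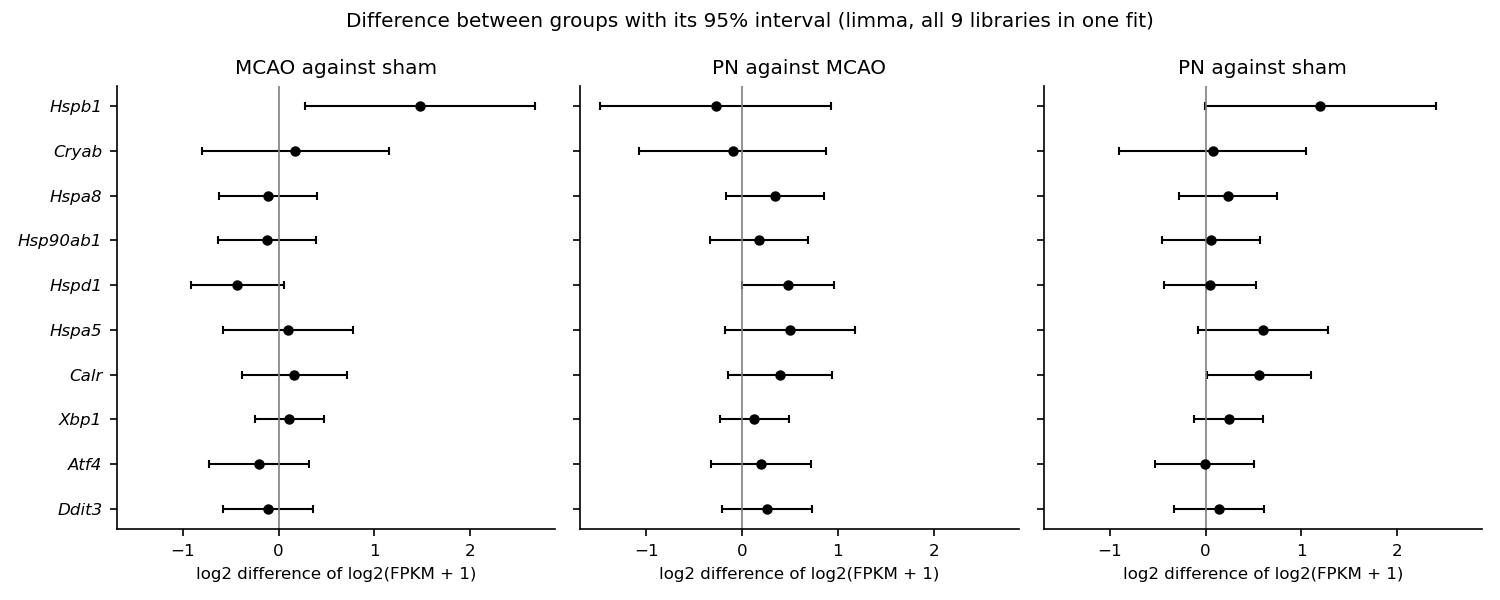
Difference of log2(FPKM + 1) between groups for each gene (points, x axis) with its 95% interval (bars) in the 3 comparisons of groups. The intervals that leave out 0 are those of Hspb1 in MCAO against sham (0.27 to 2.68) and Calr in PN against sham (0.01 to 1.11), and neither gene passed after adjustment over all genes.

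Hspb1 (ENSRNOG00000023546) encodes HSP27, a small heat shock protein that holds unfolded proteins without ATP, steadies actin filaments and is induced in astrocytes and other cells after brain injury. Sham 4B, 5B and 9A had 8.50, 2.09 and 7.73 FPKM, MCAO 3B, 6B and 7A had 33.2, 11.3 and 12.1 FPKM, and PN 3A, 6A and 7A had 14.4, 20.8 and 8.22 FPKM. Every MCAO library was thus above every sham library, while PN 7A lay among the sham libraries and the other two PN libraries above them. Means were 6.11 ± 3.50 FPKM in sham, 18.9 ± 12.4 FPKM in MCAO and 14.5 ± 6.28 FPKM in PN (SD, n = 3 each). MCAO exceeded sham by 1.47 on the log2(FPKM + 1) scale, with a standard error of 0.54 (limma, unadjusted p = 0.0216, adjusted p = 0.395). That is a fold of 2.78 on this scale, with a 95% interval of 1.21 to 6.40. Without sham 5B, the lowest library, the difference was 0.95 (unadjusted p = 0.0837), and without MCAO 3B, the highest, it was 0.998 (unadjusted p = 0.0897). PN differed from sham by 1.20 (95% interval -0.01 to 2.40, adjusted p = 0.974) and from MCAO by -0.28 (95% interval -1.48 to 0.93, adjusted p = 0.849), and neither passed. The difference from sham was 0.68 without sham 5B and 0.74 with array weights, which weight each library by its fit. These weights were 6.19 for PN 7A, 0.345 for PN 3A and 0.664 for PN 6A, so the weighted PN mean rested mostly on PN 7A. The difference from MCAO turned to 0.20 without MCAO 3B and to 0.0539 without PN 7A, and was -0.83 with array weights. The spread of Hspb1 over the 9 libraries was wide, a 15.8-fold range, with an SD of 0.97 on the log2 scale against a median of 0.35 over the genes tested. It ranked 501st of the 15051 genes by that SD.

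The promoter of Hspb1 is shown because this gene had the widest spread of the 10. Promoter sequences are from RefSeq (build GRCr8), which held an entry for 9 of the 10 genes. Each was searched on both strands over 300 bases, 250 of them before the first transcribed base, for a heat shock element, taken as GAANNTTC or TTCNNGAA. Both read the same on either strand, and neighbouring matches may overlap. Of the 33469 promoter entries of that length, 15.9% held a match. Among the 9 genes Hspb1, Hspa8 and Hspd1 did. Hspb1 held 2, at -129 to -122 and at -109 to -102, counted so that -1 is the last base before the start. The 250 bases before its start, at chr12:26432302-26432551 on the minus strand, follow with the matches in capitals. A match describes letters and not a bound site, and the build of the FPKM table is not given in the sources used here.
Hspb1 promoter: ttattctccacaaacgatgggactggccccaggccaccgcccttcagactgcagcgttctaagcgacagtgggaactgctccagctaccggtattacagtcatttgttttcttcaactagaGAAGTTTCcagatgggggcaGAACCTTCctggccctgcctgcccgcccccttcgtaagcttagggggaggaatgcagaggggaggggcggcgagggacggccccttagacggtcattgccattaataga

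Cryab (ENSRNOG00000010524) encodes alpha-B-crystallin, the other small heat shock protein, abundant in oligodendrocytes and astrocytes. In sham 4B, 5B and 9A it had 59.1, 25.4 and 22.2 FPKM, in MCAO 3B, 6B and 7A 41.5, 46.3 and 25.1 FPKM, and in PN 3A, 6A and 7A 53.9, 20.5 and 35.5 FPKM. The 3 groups overlapped throughout, and high and low libraries occurred in each. Group means were close, at 35.6 ± 20.4 FPKM in sham, 37.6 ± 11.1 FPKM in MCAO and 36.6 ± 16.7 FPKM in PN (SD, n = 3 each). The differences were 0.17 for MCAO against sham, -0.10 for PN against MCAO and 0.07 for PN against sham on the log2(FPKM + 1) scale (limma, adjusted p = 0.900, 0.942 and 0.995), each with a standard error of 0.43. The interval for MCAO against sham, -0.80 to 1.15, did not exclude a 2-fold rise. Cryab and Hspb1 did not share their high and low libraries: Hspb1 was highest in MCAO 3B and PN 6A, and Cryab highest in sham 4B and PN 3A and lowest in PN 6A.

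Hspa8 (ENSRNOG00000034066) encodes HSC70, the constitutive member of the HSP70 family that folds new proteins and uncoats clathrin vesicles at synapses. Sham 4B, 5B and 9A had 511, 488 and 628 FPKM, MCAO 3B, 6B and 7A had 423, 484 and 610.0 FPKM, and PN 3A, 6A and 7A had 799.6, 538 and 595 FPKM. PN 3A stood above the other 8 libraries, and sham and MCAO overlapped. PN exceeded MCAO by 0.34 on the log2(FPKM + 1) scale (95% interval -0.17 to 0.86, limma, adjusted p = 0.533). MCAO differed from sham by -0.11 (adjusted p = 0.872), and this sign turned with quantile normalization and when sham 9A or MCAO 3B was left out.

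Hsp90ab1 (ENSRNOG00000019834) encodes HSP90-beta, the constitutive cytosolic HSP90, which matures kinases and steroid receptors. In sham 4B, 5B and 9A it had 580.4, 691 and 713 FPKM, in MCAO 3B, 6B and 7A 555, 503 and 799.9 FPKM, and in PN 3A, 6A and 7A 596, 769 and 702 FPKM. The MCAO libraries held both the highest and the lowest value of the 9. PN exceeded MCAO by 0.17 on the log2(FPKM + 1) scale (95% interval -0.34 to 0.68, limma, adjusted p = 0.761), and the other two differences were smaller, -0.12 for MCAO against sham and 0.06 for PN against sham. Its level varied little between libraries, with an SD of 0.23 on the log2 scale.

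Hspd1 (ENSRNOG00000014525) encodes HSP60, the chaperonin of the mitochondrial matrix. Sham 4B, 5B and 9A had 71.7, 84.9 and 103 FPKM, MCAO 3B, 6B and 7A had 76.2, 47.2 and 70.2 FPKM, and PN 3A, 6A and 7A had 78.8, 92.6 and 94.4 FPKM. The lowest PN library was just above the highest MCAO library, and 2 of the 3 MCAO libraries were below every sham library. Means were 86.5 ± 15.7 FPKM in sham, 64.6 ± 15.3 FPKM in MCAO and 88.6 ± 8.53 FPKM in PN (SD, n = 3 each). PN exceeded MCAO by 0.48 on the log2(FPKM + 1) scale (standard error 0.21, limma, unadjusted p = 0.0522, adjusted p = 0.378), and MCAO differed from sham by -0.43 (95% interval -0.91 to 0.05, adjusted p = 0.492). PN and sham differed by 0.04 (95% interval -0.44 to 0.53). Both differences from MCAO leaned on MCAO 6B, without which they were 0.27 and -0.22. Without MCAO 3B they grew, to 0.61 and -0.56 (limma, unadjusted p = 0.0304 and 0.0412). With array weights they were 0.56 and -0.50 (limma, unadjusted p = 0.00868 and 0.0344). None of these passed after adjustment (limma, adjusted p from 0.106 to 0.647). The weighted PN mean rested mostly on PN 7A, the highest PN library for Hspd1, with a weight of 6.19 against 0.345 for PN 3A and 0.664 for PN 6A. Among the sham libraries the highest, sham 9A, had a weight of 1.31 and the lowest, sham 4B, 0.565. The Hspd1 promoter is shown because, of the 9 promoters, it held the longest unbroken run of heat shock element matches, 3 that overlap between -242 and -225. Its 250 bases lie at chr9:64084038-64084287 on the minus strand, with the matches in capitals.
Hspd1 promoter: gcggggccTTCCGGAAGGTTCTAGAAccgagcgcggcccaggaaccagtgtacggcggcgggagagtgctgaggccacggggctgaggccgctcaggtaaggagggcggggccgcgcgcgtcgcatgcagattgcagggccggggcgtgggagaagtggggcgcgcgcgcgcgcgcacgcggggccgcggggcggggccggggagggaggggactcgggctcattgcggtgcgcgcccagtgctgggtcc

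The ER chaperones were highest in the same libraries. Hspa5 (ENSRNOG00000018294) encodes BiP, the HSP70 of the ER, which holds the stress sensors inactive until unfolded protein draws it away. In sham 4B, 5B and 9A it had 95.3, 112 and 149.8 FPKM, in MCAO 3B, 6B and 7A 115.2, 104 and 164 FPKM, and in PN 3A, 6A and 7A 242, 201 and 115.7 FPKM. PN 3A and PN 6A stood above all other libraries, while PN 7A lay among the sham and MCAO libraries. PN exceeded MCAO by 0.50 (95% interval -0.18 to 1.18, limma, adjusted p = 0.492) and sham by 0.60 (95% interval -0.08 to 1.28, adjusted p = 0.974) on the log2(FPKM + 1) scale. MCAO and sham differed by 0.10 (95% interval -0.58 to 0.78), a sign that turned with array weights and without sham 4B or MCAO 7A.

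Calr (ENSRNOG00000003029) encodes calreticulin, a calcium-binding chaperone that retains glycoproteins in the ER until they are folded. Sham 4B, 5B and 9A had 213, 192 and 270.3 FPKM, MCAO 3B, 6B and 7A had 257, 210.2 and 287 FPKM, and PN 3A, 6A and 7A had 435, 332 and 245 FPKM. Here too PN 3A and PN 6A were the highest libraries and PN 7A lay within the range of MCAO and sham. PN exceeded sham by 0.56 on the log2(FPKM + 1) scale, with a standard error of 0.24 (limma, unadjusted p = 0.0462, adjusted p = 0.974). PN exceeded MCAO by 0.39 (adjusted p = 0.503), and MCAO exceeded sham by 0.16 (adjusted p = 0.810). Without PN 3A the PN differences of Calr were 0.36 from sham (unadjusted p = 0.158) and 0.19 from MCAO (unadjusted p = 0.425). Those of Hspa5 were 0.38 (unadjusted p = 0.246) and 0.28 (unadjusted p = 0.382). Without PN 7A they grew, to 0.77 and 0.61 for Calr (unadjusted p = 0.0128 and 0.0369) and to 0.91 and 0.81 for Hspa5 (unadjusted p = 0.00903 and 0.0160). None of these passed after adjustment (limma, adjusted p from 0.372 to 0.971). With array weights the PN differences from MCAO and sham were near 0 for Hspa5, at 0.0382 and 0.0289, and 0.0677 and 0.18 for Calr. Those fits rest mostly on PN 7A, the lowest PN library for both genes, with a weight of 6.19 against 0.345 for PN 3A and 0.664 for PN 6A. The unadjusted p of Calr against sham was 0.05 or more in 7 of the 9 fits that left out 1 library, the exceptions being sham 9A and PN 7A, and it was 0.0643 with only the 6 libraries compared.

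Xbp1 (ENSRNOG00000010298) encodes the transcription factor that raises ER chaperones and the degradation machinery once its messenger has been spliced. In sham 4B, 5B and 9A it had 61.3, 49.99 and 70.7 FPKM, in MCAO 3B, 6B and 7A 59.95, 65.9 and 69.3 FPKM, and in PN 3A, 6A and 7A 72.7, 74.0 and 66.8 FPKM. PN 6A and PN 3A were again the highest libraries, by a small margin over sham 9A. Xbp1 had the narrowest range of the 10 genes, 1.48-fold. Its PN values exceeded sham by 0.24 (95% interval -0.12 to 0.60, limma, adjusted p = 0.974) and MCAO by 0.13 (95% interval -0.23 to 0.49, adjusted p = 0.751) on the log2(FPKM + 1) scale, and MCAO exceeded sham by 0.11 (95% interval -0.25 to 0.47, adjusted p = 0.806). PN 3A and PN 6A were the top pair of libraries for Hspa5, Calr and Xbp1, 3 of the 10 genes, and for 3.73% of all genes tested.

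Hspa5 and Calr had the highest Pearson correlation of the pairs among the 10, while Spearman's correlation was higher for Atf4 and Ddit3, described further on. Over the 9 libraries Pearson's r was 0.94 (exact permutation p = 0.000143, two-sided) and Spearman's rho was 0.92 (exact permutation p = 0.00131). Of the other 15050 genes tested, Calr ranked 2nd in likeness to Hspa5, and Hspa5 ranked 5th in likeness to Calr. The correlation did not pass after adjustment over those genes (adjusted p = 0.477 for Hspa5 and 0.240 for Calr, from exact permutation). It was 0.81 without PN 3A and PN 6A, the libraries farthest from the median of Hspa5, and 0.91 for deviations from group means. The ratio of Calr to Hspa5 stayed between 1.65 and 2.23 in all 9 libraries, a 1.35-fold span, while Hspa5 itself spanned 2.54-fold. Xbp1 correlated with Calr at r = 0.75 (exact permutation p = 0.0222, rho = 0.85 with exact permutation p = 0.00607, adjusted p over all genes = 0.475 for Calr and 0.856 for Xbp1) and with Hspa5 at r = 0.68 (exact permutation p = 0.0382, rho = 0.83 with exact permutation p = 0.00827, adjusted p over all genes = 0.647 for Hspa5 and 0.856 for Xbp1). Without the 2 libraries farthest from the median of the ER chaperone these were 0.70 and 0.51, and for deviations from group means 0.59 and 0.52. Hspa8 correlated with Hspa5 at r = 0.74 (exact permutation p = 0.0211, rho = 0.73) and with Calr at r = 0.73 (exact permutation p = 0.0257, rho = 0.68). Adjusted p over all genes was 0.605 for Hspa5 and 0.486 for Calr, and from the side of Hspa8 it was 0.389 and 0.395 (exact permutation). Without the 2 libraries farthest from the median of the ER chaperone, r with Hspa8 was 0.66 and 0.34, and for deviations from group means 0.66 and 0.68. Without MCAO 3B and PN 3A, the libraries farthest from the median of Hspa8, r was 0.52 with Hspa5 and 0.64 with Calr. In all, 45 pairs were computed, of which 9 (20.0%) had an unadjusted p under 0.05 (exact permutation of r), 8 positive and 1 negative. Among all other genes tested, the share at that level was from 5.61% (for Xbp1) to 23.6% (for Ddit3). The 9 pairs also included Hspa8 with Ddit3 (r = 0.68, exact permutation p = 0.0482) and Hsp90ab1 with Hspd1 (r = 0.66, exact permutation p = 0.0392). Without the 2 libraries farthest from the median of Hspa8 or of Ddit3, r of the former pair was -0.27 and 0.50. For Hsp90ab1 with Hspd1, r was 0.28 and 0.33 without those farthest from the median of either gene.

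The promoters of Hspa5, Calr and Xbp1 are shown because these 3 genes shared their highest libraries, and because these 3 of the 9 promoters held an ER stress element, the sequence through which ATF6 and the factor NF-Y act. It was searched as CCAAT, then 9 bases of any kind, then CCACG, on both strands in the same 300 bases. Of the 33469 promoter entries, 22, or 0.0657%, held it. The genes were chosen by name for ER stress, so finding the element in them is not a test. Whether it has a part in their shared libraries was not tested. The match lay at -43 to -25 in Hspa5, at -65 to -47 in Xbp1 and, on the opposite strand, at -232 to -214 in Calr. The promoter of Hspa8, which also correlated with Hspa5 and Calr, held no such match. The 250 bases before each start are at chr3:38452766-38453015 (Hspa5), chr19:40213117-40213366 (Calr) and chr14:84604373-84604622 (Xbp1), each on the plus strand, with the element in capitals.
Hspa5 promoter: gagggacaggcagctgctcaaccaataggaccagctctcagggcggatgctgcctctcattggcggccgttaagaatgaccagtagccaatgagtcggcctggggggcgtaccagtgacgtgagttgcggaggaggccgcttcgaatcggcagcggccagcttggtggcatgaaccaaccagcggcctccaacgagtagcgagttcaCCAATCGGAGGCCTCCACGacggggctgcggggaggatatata
Calr promoter: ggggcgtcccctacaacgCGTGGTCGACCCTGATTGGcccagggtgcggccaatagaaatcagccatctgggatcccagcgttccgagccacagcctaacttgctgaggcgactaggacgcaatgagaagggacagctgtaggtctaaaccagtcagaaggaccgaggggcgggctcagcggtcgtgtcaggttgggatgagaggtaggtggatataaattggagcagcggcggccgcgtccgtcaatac
Xbp1 promoter: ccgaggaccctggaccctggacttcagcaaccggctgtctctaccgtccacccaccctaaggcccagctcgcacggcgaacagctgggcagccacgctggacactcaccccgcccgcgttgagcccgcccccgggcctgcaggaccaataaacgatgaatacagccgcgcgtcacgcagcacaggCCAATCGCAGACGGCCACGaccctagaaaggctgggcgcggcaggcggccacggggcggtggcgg

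**Figure D3:**
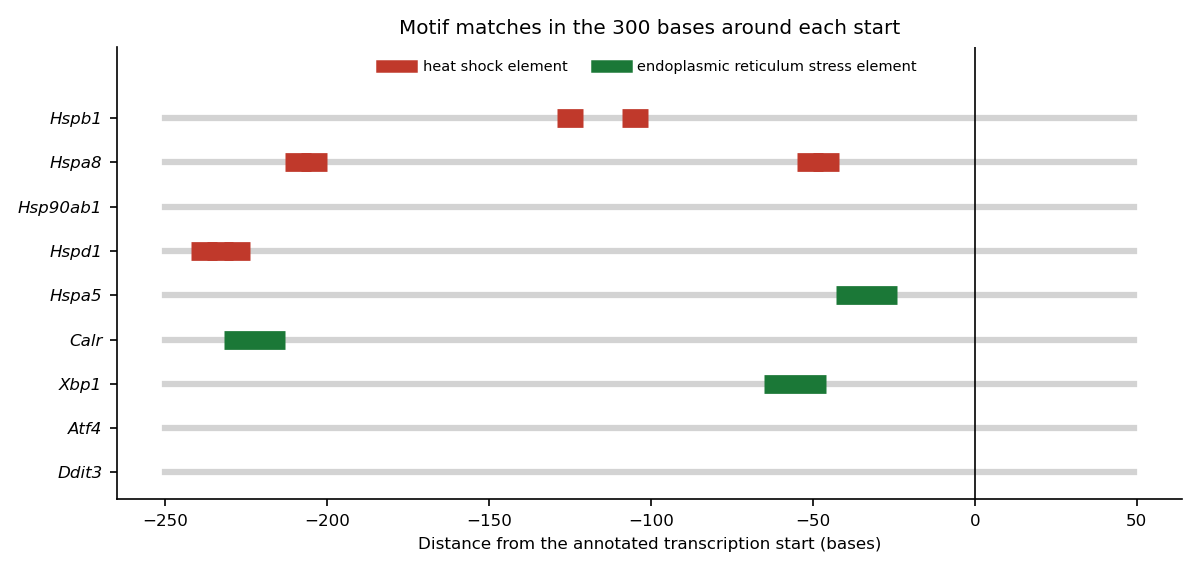
Position of heat shock element (red) and ER stress element (green) matches along the 300 bases around each annotated start (x axis, bases from the start at 0; 1 grey line per gene). Heat shock elements lie in Hspb1, Hspa8 and Hspd1 and ER stress elements in Hspa5, Calr and Xbp1, with no promoter holding both.

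**Figure D4:**
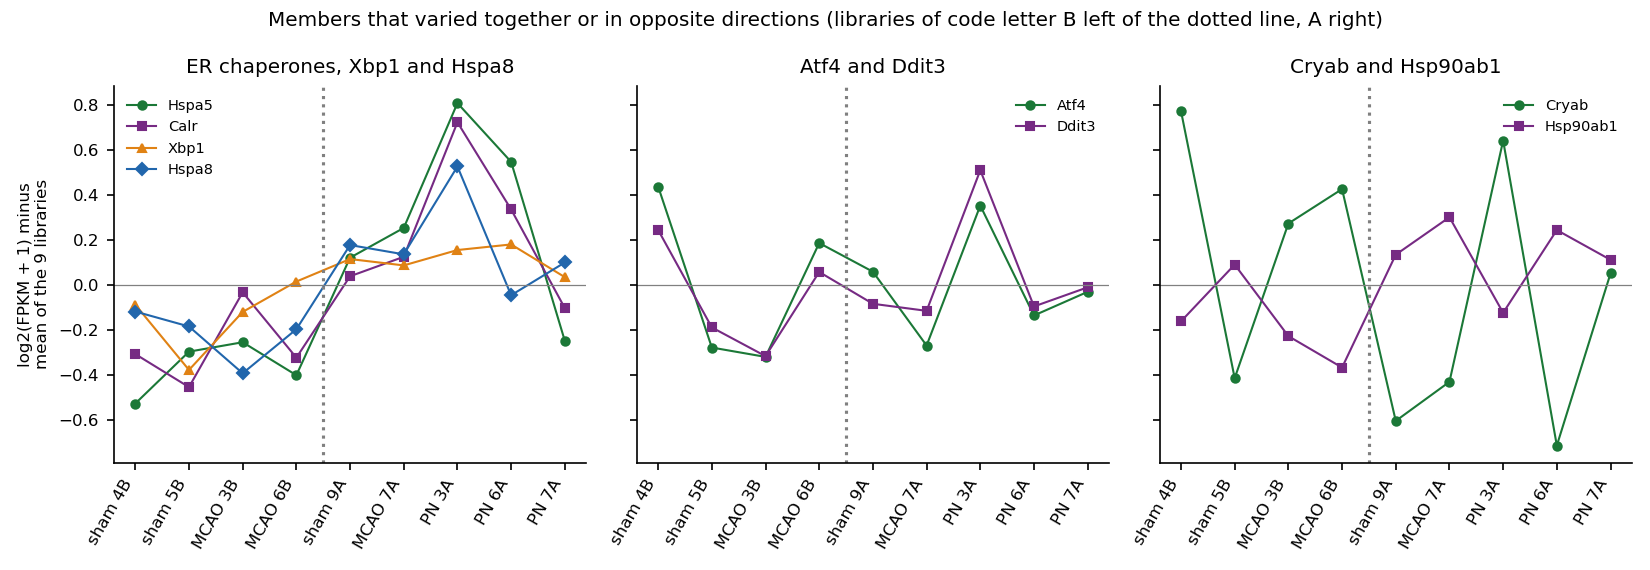
Level of 8 of the genes in each library, as log2(FPKM + 1) minus the gene's mean over the 9 libraries (y axis), with libraries of code letter B left and of code letter A right of the dotted line. Hspa5, Calr and Xbp1 lie highest in PN 3A and PN 6A, and Hspa8, in the same panel, in PN 3A and sham 9A. Atf4 and Ddit3 follow each other, and Cryab runs opposite to Hsp90ab1.

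Atf4 (ENSRNOG00000017801) encodes the factor through which PERK and other kinases raise amino acid synthesis, antioxidant and stress genes. Sham 4B, 5B and 9A had 124, 75.5 and 95.6 FPKM, MCAO 3B, 6B and 7A had 73.3, 104 and 76.0 FPKM, and PN 3A, 6A and 7A had 117, 83.4 and 89.8 FPKM. High and low libraries fell in every group, with sham 4B and PN 3A at the top and MCAO 3B at the bottom. MCAO differed from sham by -0.21 (95% interval -0.73 to 0.31, limma, adjusted p = 0.750) and PN from MCAO by 0.20 (95% interval -0.32 to 0.72, adjusted p = 0.737) on the log2(FPKM + 1) scale. PN and sham differed by -0.01 (95% interval -0.53 to 0.51).

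Ddit3 (ENSRNOG00000006789) encodes CHOP, a factor that lowers survival genes and raises pro-death genes under lasting stress. In sham 4B, 5B and 9A it had 23.8, 17.4 and 18.8 FPKM, in MCAO 3B, 6B and 7A 15.8, 20.8 and 18.3 FPKM, and in PN 3A, 6A and 7A 28.8, 18.6 and 19.8 FPKM. PN 3A and sham 4B were again the highest libraries and MCAO 3B the lowest. No group stood apart, with differences of -0.12 for MCAO against sham (95% interval -0.58 to 0.35, limma, adjusted p = 0.848), 0.26 for PN against MCAO (95% interval -0.21 to 0.73, adjusted p = 0.605) and 0.14 for PN against sham (95% interval -0.33 to 0.61, adjusted p = 0.985) on the log2(FPKM + 1) scale. In these 3 comparisons each interval for Atf4 and Ddit3 thus excluded a 2-fold change.

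Atf4 and its target Ddit3 ranked the 9 libraries almost alike. Pearson's r was 0.89 (exact permutation p = 0.000518, two-sided) and Spearman's rho 0.97 (exact permutation p = 0.000165). The adjusted p over all genes was 0.175 for Atf4 and 0.108 for Ddit3 (exact permutation), so the correlation did not pass. It was 0.86 without PN 3A and sham 4B, the libraries farthest from the median, and 0.91 for deviations from group means. Many genes followed the same library order: Ddit3 ranked 60th of 15050 in likeness to Atf4. PN 3A and sham 4B were the highest pair of libraries for Cryab, Atf4 and Ddit3, and for 13.3% of all genes tested, more than any of the other pairs of libraries. The ratio of Atf4 to Ddit3 lay between 4.07 and 5.23. The deposited values of Atf4 and Hsp90ab1 in all 9 libraries, and of Ddit3 in 6, carry more than 6 decimals, as do values of 4792 genes in the table, and what sets these apart is not given in the sources used here.

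**Figure D5:**
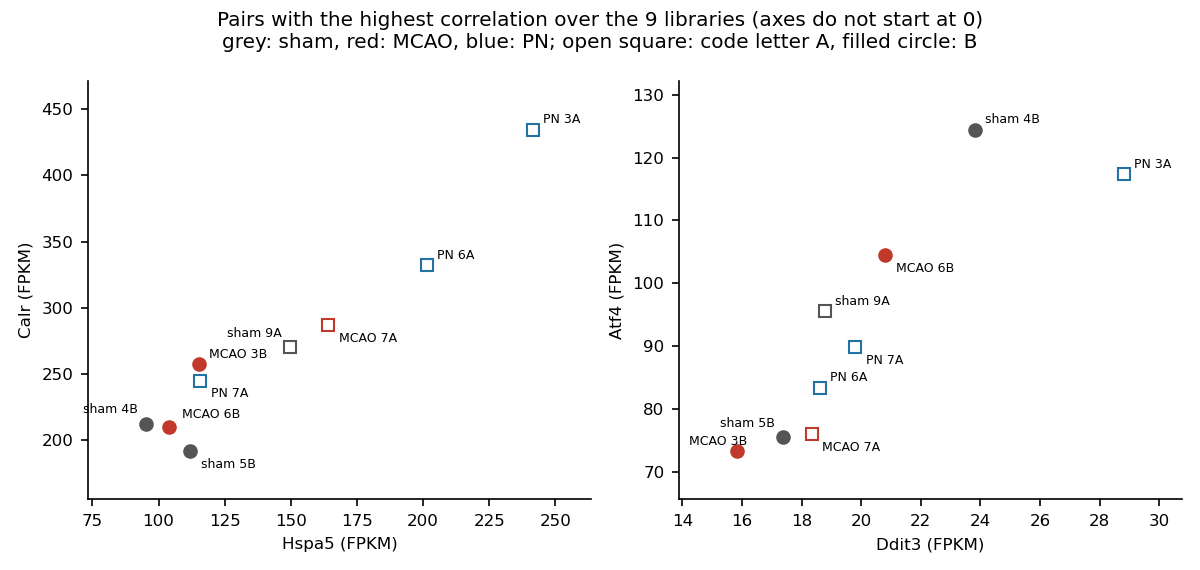
Calr against Hspa5 (left) and Atf4 against Ddit3 (right), in FPKM, with 1 point for each of the 9 libraries, coloured by group. Both pairs order the libraries of all 3 groups much alike (r = 0.94 and 0.89 on the log2 scale), with PN 3A at or near the upper end of each.

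Cryab and Hsp90ab1 ran in opposite directions. Their correlation over the 9 libraries was r = -0.82 (exact permutation p = 0.0114, two-sided) with rho = -0.80 (exact permutation p = 0.0138), and it did not pass after adjustment over all genes (adjusted p = 0.173 for Cryab and 0.327 for Hsp90ab1, exact permutation). It was -0.80 without sham 4B and PN 6A, the libraries farthest from the median of Cryab, -0.90 without MCAO 3B and MCAO 6B, those farthest from the median of Hsp90ab1, and -0.85 for deviations from group means. The ratio of Hsp90ab1 to Cryab ranged from 9.82 in sham 4B to 37.6 in PN 6A. Whether the mix of cell types has a part in this was not tested, since the markers of cell types could not be matched to identifiers.

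The letter that ends the sample code split the libraries without overlap for 3 of these genes, taking no account of group. The labels do not say what it marks. All 3 PN libraries carry A, as do MCAO 7A and sham 9A, and the other 4 carry B. This split was examined after the values had been seen. For Hspa8, Hspa5 and Xbp1 all 5 A libraries lay above all 4 B libraries, 3 of the 10 genes against 1.57% of all genes. The margin was small for Hspa5, with the lowest A library at 115.7 FPKM and the highest B library at 115.2 FPKM. In a fit with both group and letter, 0 of the 10 genes passed for the letter (limma, smallest adjusted p = 0.912, against 0% of all genes) and 0 had an unadjusted p under 0.05, against 4.78% of all genes. Since every PN library carries A, the letter difference in that fit rests on MCAO 7A and sham 9A, each set against the B libraries of its group. Hspa5 was higher with letter A by 0.56 (95% interval -0.08 to 1.19), Hspa8 by 0.38 (95% interval -0.12 to 0.88) and Xbp1 by 0.24 (95% interval -0.11 to 0.60) on the log2(FPKM + 1) scale.

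The adjustment for the letter likewise rests on the single A libraries MCAO 7A and sham 9A. With the letter in the fit, the differences between PN and MCAO were smaller for 4 of the 10 genes with the same sign. They were 0.13 for Hspa5 in place of 0.50, 0.15 for Calr in place of 0.39, 0.09 for Hspa8 in place of 0.34 and 0.27 for Hspd1 in place of 0.48 (limma, adjusted p from 0.673 to 0.900). The PN difference from sham was 0.23 for Hspa5 and 0.32 for Calr. The sign against MCAO turned for 3 genes, to 0.42 for Cryab, -0.08 for Hsp90ab1 and -0.03 for Xbp1. For the other 3 the difference was larger in size with the letter, at -0.29 in place of -0.28 for Hspb1, 0.27 in place of 0.20 for Atf4 and 0.29 in place of 0.26 for Ddit3. Within letter A, Hspa5 was at 149.8 FPKM in sham 9A, 164 in MCAO 7A and 115.7 to 242 in PN, so the PN libraries lay on both sides of the others. Within letter B, which holds no PN library, Hspa5 was at 95.3 and 112 FPKM in sham and 115.2 and 104 FPKM in MCAO. For Hspb1 every MCAO library was above every sham library, so the same order within each letter follows from that and is no further test. Within A, Hspb1 was at 12.1 FPKM in MCAO 7A and 7.73 FPKM in sham 9A. Within B it was at 33.2 and 11.3 FPKM in MCAO and at 8.50 and 2.09 FPKM in sham. The part of the letter in these results was not tested beyond this fit.

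PN 3A was the highest of the 9 libraries for 4 of the 10 genes, Hspa8, Hspa5, Calr and Ddit3, and was the highest for 21.9% of all genes tested. Its sum of FPKM was also the largest, 445693 against 387893 to 414763 in the others, and its column name has another prefix than PN 6A and PN 7A, as sham 9A has another than sham 4B and sham 5B. Without PN 3A and sham 9A, 0 of the 10 genes passed in any of the 3 comparisons (limma, smallest adjusted p = 0.336, for Hspb1 in MCAO against sham). At an unadjusted p under 0.05 there was then 1 gene in MCAO against sham (Hspb1, where 13.4% of all genes passed), 1 in PN against MCAO (Hspd1, where 6.42% passed) and 0 in PN against sham (6.76%).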

How the data were processed

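The authors deposited 1 table of FPKM values, per the file headers, with 1 column per library. Tools listed in the submitters' processing notes are HISAT2, StringTie 1.3.1, Bowtie2 2.2.8 and fastp 0.18.0. Build, annotation and strand setting: not given in the sources used here. Each column was assigned through the code in its name, and for 7A, which occurs in both MCAO and PN, through the prefix shared with other columns of that group. The depth in reads is unknown, so no counting interval is given.

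The deposited FPKM were not rescaled and were tested as log2(FPKM + 1), which understates the change of low genes. Genes reaching 1 FPKM in 3 or more of the 9 libraries (15051) were fitted together by limma-trend, 1 mean per group (limma 3.58.1, R 4.3.3), with two-sided tests and Benjamini-Hochberg adjustment over all of them. Correlations were tested by exact permutation of the 9 libraries (Python 3.11.15, numpy 2.4.6). The fit was tested on simulated data. The rule for named genes was that all 10 are named. The members and lists were chosen with earlier results of these data known. The 5 lists of other pathway genes (99 symbols) and the cell type markers were not applied to the FPKM values, since the gene table used here (GRCr8) paired 0 identifiers with a symbol. A covariate for the code letter, and leaving out PN 3A and sham 9A, were alternatives added after the data were seen. The others were other pseudocounts, filters, scalings and weights, fewer libraries and a replicate block.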

Additional observations from a re-analysis of the deposited data

How the results depend on the processing

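In every alternative run, 0 of the 10 genes passed the adjusted threshold in each of the 3 comparisons, in the test for any difference and for the code letter. Counts at an unadjusted p under 0.05 moved, as did the share of all genes at that level, given in parentheses. In MCAO against sham the count was 1 (11.1%) and became 2 with array weights (13.8%), and 0 to 2 with 1 library left out in turn (7.12% to 14.1%). In PN against MCAO it was 0 (13.2%) and became 1 with array weights (21.9%) and 1 without PN 3A and sham 9A (6.42%), and 0 to 2 with 1 library left out (6.97% to 18.0%). In PN against sham it was 1 (4.25%) and became 0 with no filter on low values (4.24%), median of ratios (4.11%), array weights (10.3%), the code letter as a covariate (2.17%), or without PN 3A and sham 9A (6.76%), and 0 to 3 with 1 library left out (1.69% to 6.49%). With only the 6 libraries compared it was still 1, but Calr was lost and Hspb1 entered (unadjusted p = 0.0643 and 0.0447, limma). Without MCAO 3B the count of 1 in MCAO against sham was Hspd1 in place of Hspb1, and in PN against sham Hspb1 in place of Calr. Without sham 4B the count of 1 in PN against sham was likewise Hspb1. For any difference it was 1 (10.3%) and became 0 with no filter (8.22%) or without PN 3A and sham 9A (9.91%), and 0 to 3 with 1 library left out (6.88% to 13.1%). With array weights the count for any difference was still 1, but for Hspd1 in place of Hspb1 (19.05%). For the code letter it was 0 (4.78%) and became 1 with quantile normalization (Hspa5, 5.04%) and 4 with array weights (Cryab, Hspa8, Hsp90ab1, Hspa5, 13.0%), and 0 to 1 with 1 library left out (2.35% to 7.59%).

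Signs turned only for differences that had not passed, and the cause was not tested. In MCAO against sham, Hspa8 was 0.0511 with quantile normalization and 0.000244 without PN 3A and sham 9A, Cryab -0.0897 without those, and Hspa5 -0.00936 with array weights. In PN against MCAO with the letter, Cryab was 0.42, Hsp90ab1 -0.081 and Xbp1 -0.033. In PN against sham, Hspd1 was -0.00357 with equal sums and -0.0103 with median of ratios, and Hsp90ab1 -0.0179 with quantile normalization. There, with the letter, Hspa8 was -0.0178, Hsp90ab1 -0.20, Hspd1 -0.16 and Atf4 0.06, and without PN 3A and sham 9A, Cryab was -0.51 and Ddit3 -0.0806. The letter difference of Hspb1 was -0.0267 with quantile normalization.

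With 1 library left out in turn, MCAO against sham ranged from -0.0937 to 0.28 for Hspa5, -0.21 to 0.0117 for Ddit3, -0.0196 to 0.23 for Xbp1, -0.0897 to 0.60 for Cryab, -0.25 to 0.0114 for Hspa8 and -0.32 to 0.0157 for Hsp90ab1. PN against MCAO ranged from -0.57 to 0.20 for Hspb1 and -0.42 to 0.26 for Cryab. PN against sham ranged from -0.0352 to 0.16 for Hsp90ab1, -0.0811 to 0.18 for Hspd1, -0.19 to 0.17 for Atf4, -0.25 to 0.50 for Cryab and -0.0435 to 0.27 for Ddit3. The letter difference ranged from -0.64 to 0.69 for Hspb1, -0.28 to 0.0286 for Atf4 and -0.14 to 0.0531 for Ddit3. The 3 leading correlations, picked as the strongest of the 45 pairs, kept their sign in every alternative. These were the other scalings, the pseudocount of 0.1, and deviations from group or group and letter means. Each library was also left out in turn, and PN 3A and sham 9A together. They lay at 0.87 to 0.97 for Hspa5 and Calr, 0.79 to 0.96 for Atf4 and Ddit3, and -0.87 to -0.76 for Hsp90ab1 and Cryab. The unadjusted p from permutation of r stayed under 0.05. For deviations from means that p is not exact and tends to be too small, since such deviations cannot be freely exchanged. The correlations without the 2 farthest libraries, given above without a p, reached 0.81 and -0.90. MCAO and PN share the code numbers 3, 6 and 7. Deviations of same-numbered libraries from their group means correlated at 0.0638, -0.402 and -0.160, and 1 of the 3 MCAO libraries correlated best with its own number, so the numbers were not taken to pair samples. With the number as a replicate block, 0 of the 10 genes passed in PN against MCAO (limma, smallest adjusted p = 0.579) and 0 had an unadjusted p under 0.05, where 9.18% of all genes did.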

Other observations

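The promoters of other genes of these pathways were searched for the same elements, without expression values, since the identifiers of those genes could not be matched. Of the 27 cytosolic chaperone and heat shock genes with a RefSeq promoter entry, 15 held a heat shock element within the 300 bases around the start, among them the co-chaperones Bag3, Dnajb1, Stip1 and Hsph1, where 15.9% of all entries did. Of the 7 mitochondrial genes 3 held it, among them Hspe1, the partner of Hspd1, and of the 16 genes of ER chaperones and folding enzymes 1, P4hb. The ER stress element was found in 5 of those 16 (Canx, Creld2, Dnajc3, Ero1b and Hsp90b1), in 1 of 10 sensor and ER degradation genes (Derl3) and in 0 of the 27 cytosolic, 7 mitochondrial and 19 integrated stress response genes, against 0.0657% of all entries. Hsp90b1, which encodes the ER form of HSP90, held 2. The element that ATF4 binds together with C/EBP factors, searched as TGATGNAA on both strands, was in 4 of the 19 integrated stress response genes (Chac1, Nupr1, Ppp1r15b and Trib3), in 0 of the 9 member promoters and in 3.98% of all entries. These counts describe sequence letters, and where no match was found, the letters were not in this window. The lists were chosen by name for these pathways, so the counts are not a test of the elements.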
